A study of Mus musculus with 8 samples.

Results

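The apelin receptor gene with its ligand genes (Aplnr, Apln and Apela) and the PDGF receptor genes with a pair of their ligand genes (Pdgfra, Pdgfrb, Pdgfa and Pdgfc) were followed through the early differentiation of WT and CTCF-K20R cells. Members were the rows of the gene expression table that carry these 7 names, and 6 of the 7 had a row among 18094 genes. No row is named Apela, and 1 row of uncertain name that may belong to it is described separately and is in none of the counts of members. RNA-seq had been done on WT and CTCF-K20R mESCs (day 0) and on EBs at day 4, and each genotype has 2 libraries per day. The mESCs are mouse embryonic stem cells of the line E14Tg2A, kept undifferentiated on a layer of inactivated embryo fibroblasts by LIF and the 2i inhibitors. EBs are the aggregates these cells form in hanging drops without LIF, where the germ layers begin to appear. In the CTCF-K20R cells, CRISPR/Cas9 had replaced lysine 20 of the chromatin-binding protein CTCF with arginine, and the WT cells are the same line without this change. The study speaks of clones in the plural but the labels give no clone for a library, so the genotype cannot be told apart from a difference between clones or cultures.

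APLNR is a G-protein-coupled receptor of the cell surface that is turned on by the secreted peptides apelin (from Apln) and ELABELA, also called Toddler (from Apela). In the embryo it is known for its part in the movement of mesendoderm during gastrulation, in heart formation and in vessel growth. PDGFRA and PDGFRB are receptor tyrosine kinases that pair up when a PDGF dimer binds them. PDGF-A and PDGF-C bind mainly PDGFRA, which is a classical sorting marker of mesoderm, while PDGFRB is best known from pericytes and other mural cells.

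The values are normalized counts, that is, estimated reads per gene scaled by the authors over all 8 libraries. Library totals ran from 19412659 to 21311513 normalized counts, and 3 reads, taken as the limit of detection, came to between 2.44 and 3.42 normalized counts. This limit covers counting error only. The paired WT libraries of a day differed by less than reads drawn independently would (mean ratio of squared difference to sampling noise 0.314 on day 0 and 0.277 on day 4, against 4.01 and 4.37 in CTCF-K20R), so each WT pair was counted as 1 sample and carries no SD. Nothing in the labels says that the CTCF-K20R libraries came from separate cultures, so p-values measure the spread between these libraries only. Tests were made with limma on log2(value + 1), a scale on which changes of low genes are understated. A gene was called when its log2 fold change was beyond 1 in either direction and its adjusted p was under 0.05. Ctcf itself ranged from 3939 to 4926 normalized counts over the 8 libraries, with log2 fold changes of 0.19 between genotypes on either day (adjusted p = 0.055 on day 0 and 0.0268 on day 4). The point mutation cannot be read from these values.

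On day 4, the RNA of both Aplnr and Pdgfra was nearly missing from CTCF-K20R EBs, and that of Apln was about 4-fold lower than in WT. Aplnr, Pdgfra and Apln were called lower in CTCF-K20R, 3 of the 6 members, against 8.65% of the 15767 genes tested. No member was called higher by limma, against 6.89% of all genes, and none was higher at an unadjusted p under 0.05 (0 of 6). The median log2 fold change of the members was -1.50, beside 0.01 for all genes tested. In bulk libraries, fewer cells of a type and less RNA per cell cannot be told apart.

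**Figure D1:**
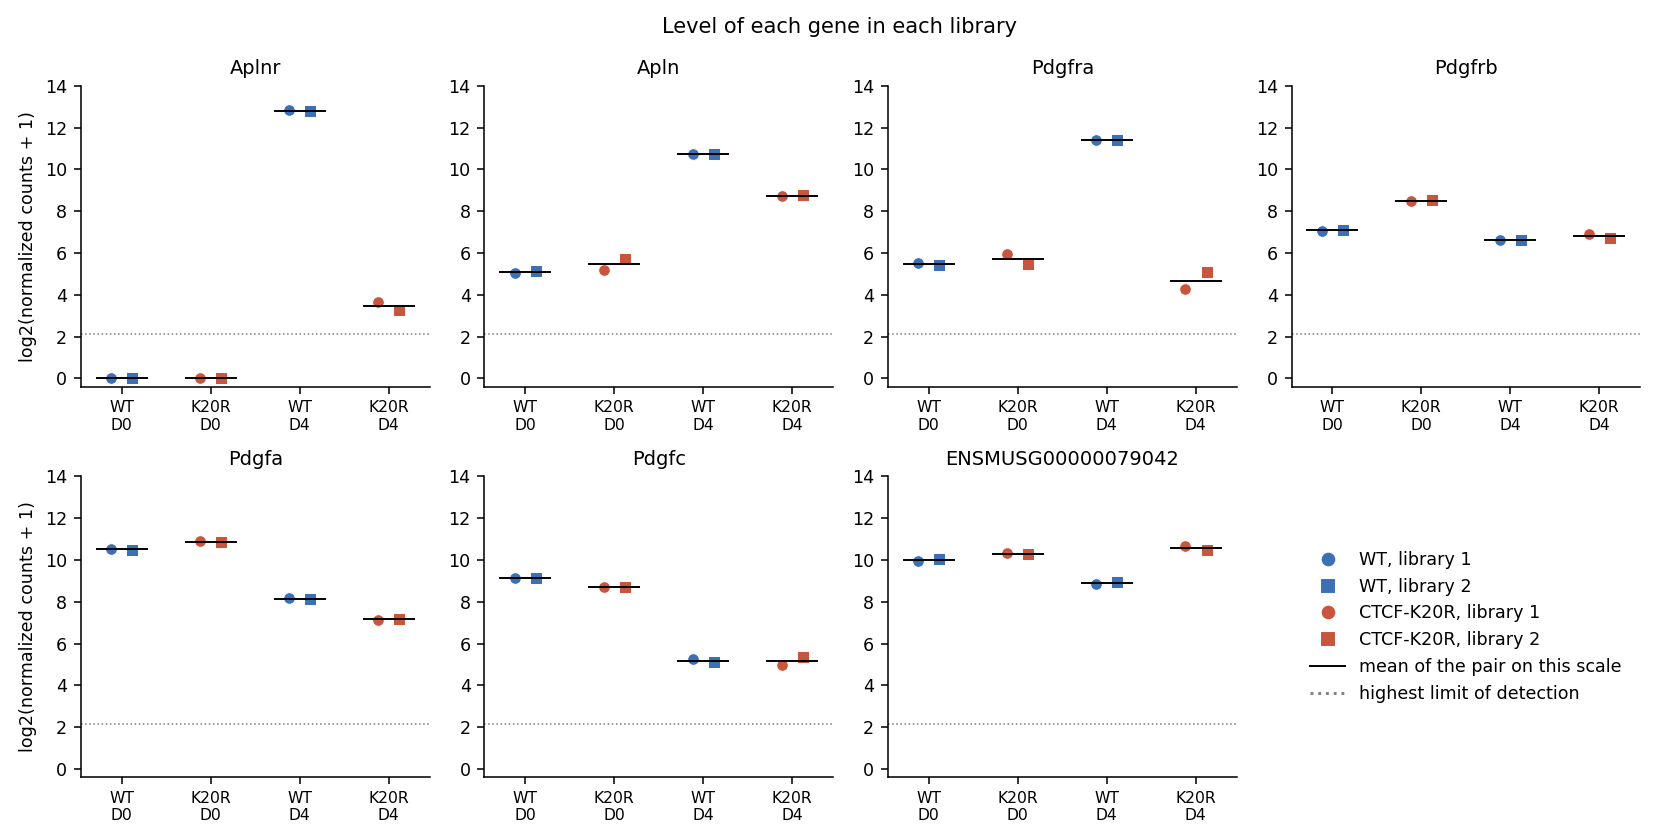
Level of each gene in each library as log2(normalized counts + 1), by genotype (colour) and day (D0, day 0; D4, day 4), with circles for library 1, squares for library 2, a bar at the mean of each pair and a dotted line at the highest limit of detection (3.42 normalized counts). Aplnr is at 0 in the 4 day 0 libraries, and Aplnr, Apln and Pdgfra stand highest in the WT day 4 libraries.

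The receptor genes are described before their ligands. Aplnr (ENSMUSG00000044338; GRCm38 chromosome 2, 85136225 to 85139923, plus strand, protein coding) was at 0 in all 4 mESC libraries of either genotype. In WT EBs it reached 7254 and 7208 normalized counts. In CTCF-K20R EBs it was at 11.4 and 8.75 (mean 10.1 ± 1.90, SD, n = 2). Both CTCF-K20R values lie above the limit of detection, so the gene was detected there, but far below either WT library. The difference was 716-fold (log2 fold change -9.36, SE 0.490, adjusted p = 0.000152). Against day 0, the gain was at least 2133-fold in WT and at least 3.06-fold in CTCF-K20R, where the limit of detection stands in for the values of 0. The gain in CTCF-K20R was called (log2 fold change 3.46, adjusted p = 0.000935, with a size that runs from 1.59 with a pseudocount of 5 to 6.66 with 0.1), and the WT gain, 1 sample against 1, has no test.

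Pdgfra (ENSMUSG00000029231; GRCm38 chromosome 5, 75152292 to 75198215, plus strand, protein coding) was low in mESCs, at 45.1 and 42.4 normalized counts in WT and 60.2 and 42.7 in CTCF-K20R. In WT EBs it was at 2731 and 2753. In CTCF-K20R EBs it was at 18.3 and 33.0 (mean 25.6 ± 10.4, SD, n = 2). The gene thus went up 62.7-fold in WT cells between the days, whereas both CTCF-K20R EB libraries lay below all 4 mESC libraries. On day 4 the genotypes differed 107-fold (log2 fold change -6.74, SE 0.424, adjusted p = 0.000249), and on day 0 their libraries overlapped (log2 fold change 0.21, adjusted p = 0.777). The change of CTCF-K20R cells from day 0 to day 4 (log2 fold change -1.01, SE 0.346, adjusted p = 0.0498) just met the limits for a call. This call held under 7 of 17 alternative settings. It was lost, among others, with a pseudocount of 0.1 or 5 and with only the libraries compared. It was also lost when any 1 of the 4 CTCF-K20R libraries was left out. The values then ran from -1.42 without library 2 of day 4 to -0.61 without library 1 of day 4.

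Pdgfrb (ENSMUSG00000024620; GRCm38 chromosome 18, 61045150 to 61085061, plus strand, protein coding) behaved otherwise, with its difference on day 0 and not on day 4. It was at 131 and 138 normalized counts in WT mESCs and at 353 and 369 in CTCF-K20R mESCs (mean 361 ± 10.7, SD, n = 2). In EBs it was at 98.1 and 97.5 in WT and at 121 and 105 in CTCF-K20R. The day 0 libraries of the genotypes lay far apart and the day 4 libraries close together. On day 0 it was 2.69-fold higher in CTCF-K20R (log2 fold change 1.42, SE 0.182, adjusted p = 0.00866), and it was the sole member called on that day, 1 of 6, against 1.19% of all genes called higher. No member was called lower on day 0, against 2.60% of all genes, or lower at an unadjusted p under 0.05 (0 of 6). The call was lost when either CTCF-K20R library of day 0 was left out (adjusted p = 0.0579 and 0.0597) and when either of day 4 was (adjusted p = 0.0760 and 0.0751), at about the same size of difference. On day 4 the log2 fold change was 0.21, with a 95% confidence interval from -0.25 to 0.66 (adjusted p = 0.414). From day 0 to day 4 it was called lower in CTCF-K20R (3.19-fold, log2 fold change -1.67, adjusted p = 0.000352), and in WT the change was 1.37-fold in the same direction.

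The ligand Apln (ENSMUSG00000037010; GRCm38 chromosome X, 48025146 to 48034853, minus strand, protein coding) was at 31.7 and 34.0 normalized counts in WT mESCs and at 35.8 and 51.8 in CTCF-K20R mESCs. In EBs it was at 1714 and 1715 in WT and at 419.7 and 431 in CTCF-K20R (mean 425 ± 7.86, SD, n = 2). It went up from its mESC level in both genotypes, 52.2-fold in WT and 9.71-fold in CTCF-K20R (the latter with a log2 fold change of 3.27, adjusted p = 0.000102). On day 4 it was 4.03-fold lower in CTCF-K20R (log2 fold change -2.01, SE 0.255, adjusted p = 0.00263). Without either CTCF-K20R library of day 4 the value was about the same, but the call was lost (adjusted p = 0.0604 without library 1 and 0.0584 without library 2). On day 0 the log2 fold change was 0.38 (95% confidence interval -0.26 to 1.02, adjusted p = 0.368).

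Pdgfa and Pdgfc were the highest of the PDGF members in mESCs, also per kb of exon, and both fell with differentiation. Pdgfa (ENSMUSG00000025856; GRCm38 chromosome 5, 138976014 to 138997370, minus strand, protein coding) was at 1498 and 1444 normalized counts in WT mESCs and at 1920.1 and 1856.5 in CTCF-K20R mESCs. In EBs it was at 288 and 279.6 in WT and at 140.2 and 144 in CTCF-K20R (mean 142 ± 2.76, SD, n = 2). The fall between the days was 5.19-fold in WT and 13.3-fold in CTCF-K20R (log2 fold change -3.72, adjusted p = 3.63e-06). On day 4 it was 2.00-fold lower in CTCF-K20R (log2 fold change -0.99, SE 0.092, adjusted p = 0.000881), so it passed the limit on p and missed that on size. It was called with a log2 fold change of -1.01 when WT library 2 or CTCF-K20R library 2 of day 4 was left out. On day 0 it leaned the other way, with a log2 fold change of 0.36 (adjusted p = 0.055). Pdgfa shares 2315 bases with an antisense gene, 6330403L08Rik, whose day 4 log2 fold change was -1.27 (adjusted p = 0.0287). The use of strand in the counting is not given in the sources used here, so reads in the shared stretch may belong to either gene.

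Pdgfc (ENSMUSG00000028019; GRCm38 chromosome 3, 81036416 to 81214040, plus strand, protein coding) was at 571 and 566 normalized counts in WT mESCs and at 421 and 417 in CTCF-K20R mESCs. In EBs it was at 37.6 and 33.4 in WT and at 30.0 and 40.2 in CTCF-K20R, and here the genotypes overlapped. The fall was 16.0-fold in WT and 11.9-fold in CTCF-K20R (log2 fold change -3.56, adjusted p = 6.60e-05). On day 4 the difference between genotypes was -0.03 on the log2 scale, with a 95% confidence interval from -0.64 to 0.58 (adjusted p = 0.932). On day 0 it was -0.44 (adjusted p = 0.282).

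**Figure D2:**
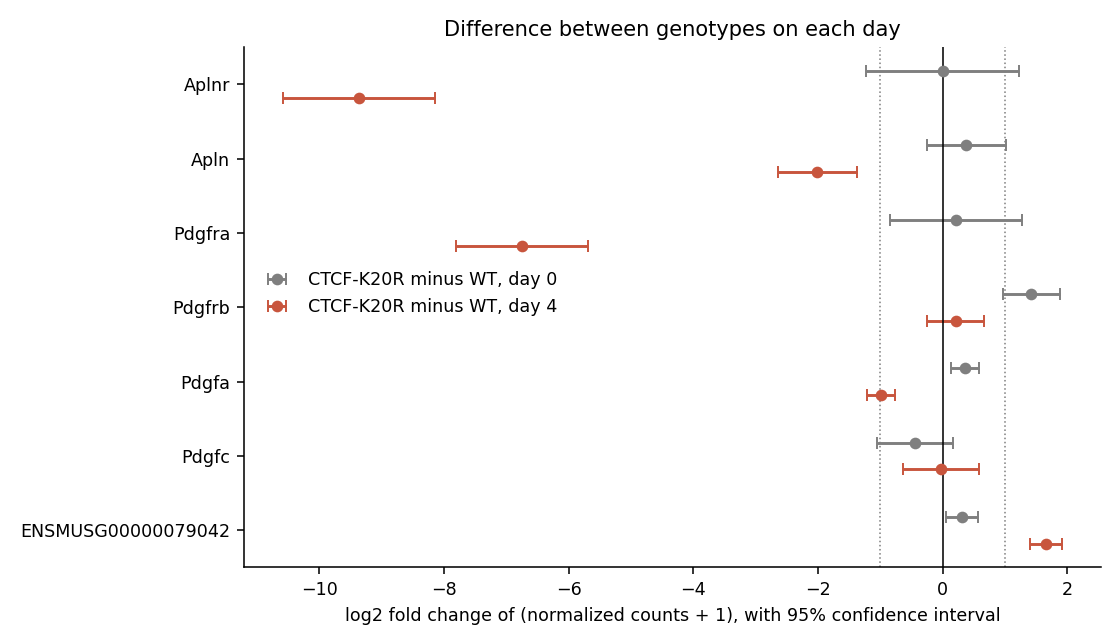
Log2 fold change of CTCF-K20R against WT (horizontal axis, with 95% confidence intervals from limma) for each gene on day 0 (grey) and day 4 (red), with dotted lines at -1 and 1. Aplnr (-9.36) and Pdgfra (-6.74) lie far to the left on day 4, Pdgfrb lies past 1 on day 0 only, and Aplnr is drawn at 0 on day 0, where all 4 libraries are at 0.

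The difference between genotypes was then compared between the days. This interaction, the log2 fold change on day 4 minus that on day 0, was called lower for 5 of the 6 members, against 6.04% of all genes, and higher for none (0 of 6 also at an unadjusted p under 0.05), against 6.84%. It was -9.36 for Aplnr (SE 0.693, adjusted p = 0.000925), -6.95 for Pdgfra (SE 0.60, adjusted p = 0.00135) and -2.39 for Apln (SE 0.361, adjusted p = 0.00802). For these 3 genes the day 4 level carried the interaction. For Pdgfa it was -1.35 (SE 0.130, adjusted p = 0.00189), with small differences of opposite sign on the 2 days. For Pdgfrb it was -1.21 (SE 0.258, adjusted p = 0.0227), from the higher day 0 level. Pdgfc was not called (0.41, 95% confidence interval -0.45 to 1.27, adjusted p = 0.428). Without either CTCF-K20R library of day 4, 3 members were called, and Apln and Pdgfrb were not. Pdgfrb was also not called without either CTCF-K20R library of day 0 (adjusted p = 0.0692 and 0.0773), and with quantile normalization its size was under the limit (-0.96).

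Over time within a genotype, all 6 members were called in CTCF-K20R cells, Aplnr and Apln higher and the other 4 lower, against 14.5% and 11.6% of all genes. In WT cells 3 members were more than 2-fold higher on day 4 and 2 more than 2-fold lower, against 18.9% and 16.3% of all genes past the same fold with no test. The comparisons share samples, so their values are given side by side. Pdgfra is the member whose change had opposite directions, up in WT and down in CTCF-K20R, with the support for the latter described above. Aplnr and Apln rose and Pdgfa and Pdgfc fell in both.

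On a scale divided by exon length, so that genes can be set beside each other, Aplnr was the highest member in WT EBs with 1955 normalized counts per kb of exon. It was followed by Apln (544), Pdgfra (274), Pdgfa (91.0), Pdgfrb (17.9) and Pdgfc (6.97), and the paired libraries left each of these steps apart. In CTCF-K20R EBs the order was Apln (135), Pdgfa (45.6), Pdgfrb (20.7), Pdgfc (6.89), Aplnr (2.73) and Pdgfra (2.56). There the last pair overlapped, with 2.37 to 3.09 per kb for Aplnr and 1.83 to 3.29 for Pdgfra. Aplnr thus went from the top of the order in WT EBs to its low end in CTCF-K20R EBs, together with Pdgfra. In mESCs of both genotypes the order was Pdgfa, Pdgfc, Pdgfrb, Apln, Pdgfra and Aplnr, from 472 down to 0 per kb in WT and from 605 down to 0 in CTCF-K20R. Pdgfrb was the higher of the PDGF receptor genes in mESCs, at 24.5 per kb in WT against 4.37 for Pdgfra, and Pdgfra took that place in WT EBs.

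**Figure D3:**
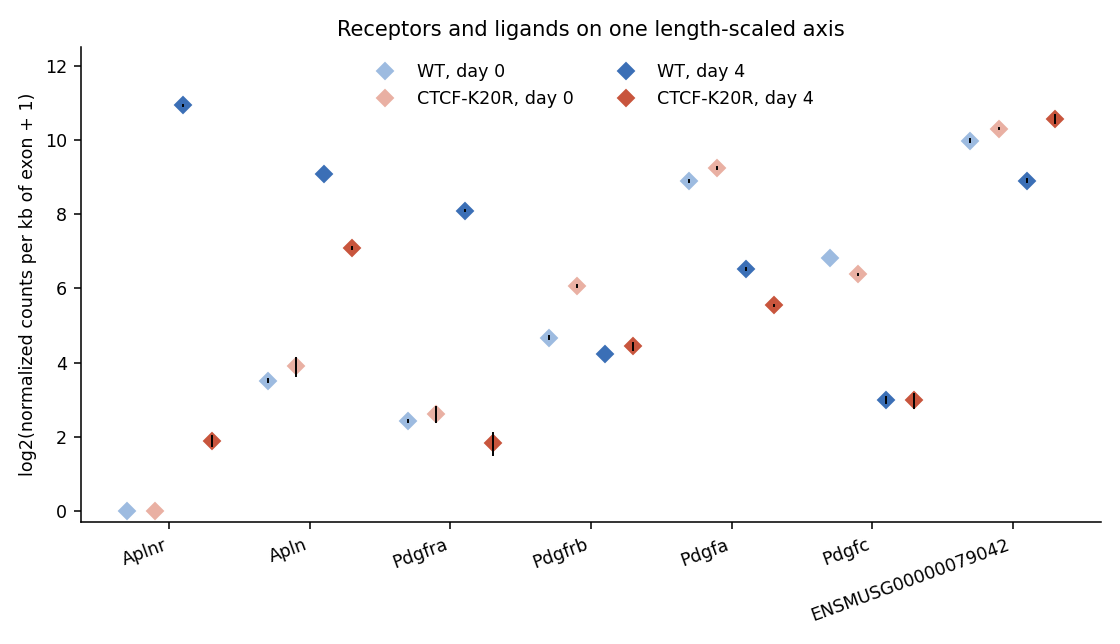
Mean level of each gene in each group as log2(normalized counts per kb of exon + 1), with black lines from the lower to the higher of the paired libraries (often shorter than the symbol). In WT day 4 libraries (dark blue) Aplnr is the highest of the 6 members at 1955 per kb, and in CTCF-K20R day 4 libraries (dark red) Aplnr and Pdgfra are the lowest.

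The table has a row with the identifier ENSMUSG00000079042 that it names Trim61, while GENCODE vM21 gives this identifier to Apela (GRCm38 chromosome 8, 65028417 to 65037336, minus strand, protein coding) and another one to Trim61. A gene on the same strand, Gm45886, overlaps this stretch by 8680 bases and has no row, so its reads may be counted here. Which transcripts the values stand for was not settled, so they are given under the identifier. The row was at 989 and 1047 normalized counts in WT mESCs and at 1278 and 1259 in CTCF-K20R mESCs. In EBs it was at 465 and 499 in WT and at 1643 and 1414.5 in CTCF-K20R (mean 1529 ± 161, SD, n = 2). WT cells were 2.11-fold lower on day 4, while both CTCF-K20R EB libraries lay above every mESC library. On day 4 it was 3.17-fold higher in CTCF-K20R (log2 fold change 1.66, SE 0.102, adjusted p = 0.000238), the reverse of Apln. On day 0 the log2 fold change was 0.32 (adjusted p = 0.0994), and the interaction was 1.34 (SE 0.145, adjusted p = 0.00275). Of the 40 tested genes nearest to it on the chromosome, 20 on each side, 29 were above 0 on day 4. Their median log2 fold change was 0.47, over a span of 12.2 Mb. Among them 9 were called higher and 2 lower, beside 6.89% and 8.65% of all genes. The part of the region in the value of the row was not tested.

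For the 6 members the same 40 neighbours gave medians on day 4 from -0.17 around Pdgfrb to 0.25 around Apln. For the receptor genes Aplnr and Pdgfra the medians were 0.08 and -0.14. Among these neighbours 2 were called higher and 1 lower around Aplnr, and 2 higher and 4 lower around Pdgfra. The shares of all genes were 6.89% and 8.65%. The most calls were around Pdgfc (7 higher and 4 lower) and Pdgfrb (2 higher and 7 lower). The neighbours of Aplnr and Pdgfra span 6.82 and 14.8 Mb, so the medians do not describe single genes close by. Of the genes next to Aplnr and Pdgfra, 1 beside each was called lower. This was not particular to them. Cdx1, beside Pdgfrb, was called lower as well (log2 fold change -1.65, adjusted p = 0.00875). So were both genes beside Pdgfa, Fam20c (log2 fold change -2.61, adjusted p = 0.0196) and 6330403L08Rik. Ptprj, which follows Aplnr on the chromosome and codes for a receptor phosphatase, had a log2 fold change of -1.04 (adjusted p = 0.00711). Kit, which codes for the receptor of stem cell factor and follows Pdgfra, was called lower too (log2 fold change -2.34, SE 0.183, adjusted p = 0.000512). Its normalized counts were 1687 and 1702 in WT EBs, against 284 and 390.5 in CTCF-K20R EBs.

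The sequence before the transcription start is shown for Apln and Pdgfra, which were lower on day 4 in CTCF-K20R, and for Pdgfc, whose day 4 values overlapped. These are the 250 bases before the start in RefSeq (GRCm38.p6), read 5′ to 3′ along the strand of the gene, with each CpG in capitals. They lie at chrX:48034854-48035103 on the minus strand, at chr5:75152001-75152250 on the plus strand and at chr3:81036166-81036415 on the plus strand.
Apln: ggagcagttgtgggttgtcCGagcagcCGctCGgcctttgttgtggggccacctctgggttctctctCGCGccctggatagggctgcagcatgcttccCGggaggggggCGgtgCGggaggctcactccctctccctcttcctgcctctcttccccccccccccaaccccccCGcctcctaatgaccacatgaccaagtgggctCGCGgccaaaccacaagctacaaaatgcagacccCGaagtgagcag
Pdgfra: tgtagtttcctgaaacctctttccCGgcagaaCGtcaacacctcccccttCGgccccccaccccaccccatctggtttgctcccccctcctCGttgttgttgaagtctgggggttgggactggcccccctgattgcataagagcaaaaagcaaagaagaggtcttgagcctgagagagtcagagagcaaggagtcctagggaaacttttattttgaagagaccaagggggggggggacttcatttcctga
Pdgfc: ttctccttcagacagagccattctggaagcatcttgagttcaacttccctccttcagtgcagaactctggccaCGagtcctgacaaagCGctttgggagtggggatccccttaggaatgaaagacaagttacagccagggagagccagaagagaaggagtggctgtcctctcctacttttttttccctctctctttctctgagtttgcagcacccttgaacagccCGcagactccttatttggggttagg
The Apln window had 12 CpG and 65.2% GC, the Pdgfra window 4 CpG and 54.4% GC, and the Pdgfc window 3 CpG and 50.8% GC, beside medians of 6 CpG and 52.4% GC over 32851 windows of the same length. The windows were searched on both strands for the T-box motif GGTGTGA, the TCF/LEF motif ATCAAAG, the FOXH1 motif AATCCAC and a form of the CTCF core, AGGGGGC, none of which is part of another. None of these letters was found in the 6 windows of the 5 members in the sequence table (Apln, Apela, Pdgfra, Pdgfa and Pdgfc). Of all windows, 3.33% held the T-box motif, 3.21% the TCF/LEF motif, 2.10% the FOXH1 motif and 9.43% the CTCF form.

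The genes around the receptors were taken from pathway lists. PDGF dimers are cut to their active form by proteases, and neuropilins act as co-receptors. Of 8 such genes tested, 4 were called lower on day 4 and none higher (1 was higher at an unadjusted p under 0.05), beside 8.65% and 6.89% of all genes. Their median log2 fold change was -1.50. The largest falls were those of the neuropilins. Nrp1 was at 1084 and 1091 normalized counts in the EBs of WT and at 7.91 and 5.47 in CTCF-K20R EBs (log2 fold change -7.16, SE 0.446, adjusted p = 0.000242). Nrp2 was at 2517 and 2490.5 against 72.8 and 68.1 (log2 fold change -5.13, SE 0.108, adjusted p = 1.67e-05), and on day 0 it was higher in CTCF-K20R (log2 fold change 1.11, adjusted p = 0.00400), as Pdgfrb was. The other PDGF ligand genes and the receptor-like gene Pdgfrl gave 1 call lower among 3 genes, that of Pdgfrl, which was at 154 and 157 in WT EBs and at 70.5 and 72.0 in CTCF-K20R EBs (log2 fold change -1.12, adjusted p = 0.0290).

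For the proteins that carry the signal inside the cell, the share of genes called was near that of all genes. Of 18 genes of the PDGF receptor relay (adaptors, PI3-kinase subunits, phosphatases), 1 was called higher and 1 lower on day 4 (5 and 5 at an unadjusted p under 0.05), beside 6.89% and 8.65% of all genes, and the median log2 fold change was 0.06, beside 0.01 for all genes tested. Gab1, a docking adaptor, was at 1659 and 1662 normalized counts in the EBs of WT and at 4827 and 4767 in CTCF-K20R EBs (log2 fold change 1.53, SE 0.038, adjusted p = 2.53e-05). Ptprj, the neighbour of Aplnr, was at 650 and 656 against 295 and 339 (log2 fold change -1.04, SE 0.177, adjusted p = 0.00711). Of 21 tested genes of apelin receptor signalling and apelin clearance (G proteins, arrestins, RGS proteins, effectors and a peptidase), 1 was called higher and 3 lower (8 and 5 at an unadjusted p under 0.05), with a median of -0.25. Klf2, a transcription factor that is also a marker of mESCs, was at 73.4 and 69.7 against 451 and 387 (log2 fold change 2.53, adjusted p = 9.10e-05). Rgs5, a regulator of G protein signalling, was at 386 and 385 in WT EBs and at 4.00 and 1.94 in CTCF-K20R EBs, where the mean was at or under the limit of detection, so that it was at least 113-fold lower (adjusted p = 0.00154). Prkce, a protein kinase C, had a log2 fold change of -1.89 (adjusted p = 0.00854).

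Pdgfra is one of several surface proteins used to sort mesoderm, and the others mostly went with it. Of 10 such genes, 7 were called lower on day 4 and none higher (1 at an unadjusted p under 0.05), beside 8.65% and 6.89% of all genes. Their median log2 fold change was -2.76. Cdh11, a cadherin of mesenchyme, had 2681 and 2694 normalized counts in EBs of WT against 34.3 and 26.0 in the CTCF-K20R EB libraries (log2 fold change -6.44, SE 0.323, adjusted p = 0.000138). Cxcr4, a chemokine receptor, was at 2129 and 2154 against 27.9 and 30.7 (log2 fold change -6.15, SE 0.312, adjusted p = 0.000142). Of 7 surface proteins of epithelial or pluripotent cells, 2 were called higher and 1, Kit, lower. Cldn4, a tight junction protein, was at 297 and 296 in WT EBs and at 891 and 889 in CTCF-K20R EBs (log2 fold change 1.58, adjusted p = 0.000110). Cdh1, E-cadherin, was at 7650.0 and 7666 against 17798 and 18538 (log2 fold change 1.25, adjusted p = 3.02e-05). Of 16 transcription factors of nascent mesoderm, 15 were called lower and none higher (0 of 16 also at an unadjusted p under 0.05), with a median of -4.91, or -4.85 where 3 genes not above that limit in CTCF-K20R were set to their bound. Lhx1 was 2323.5-fold lower (log2 fold change -10.98), and Msgn1, at 0 in both CTCF-K20R EB libraries, at least 258-fold lower.

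**Figure D4:**
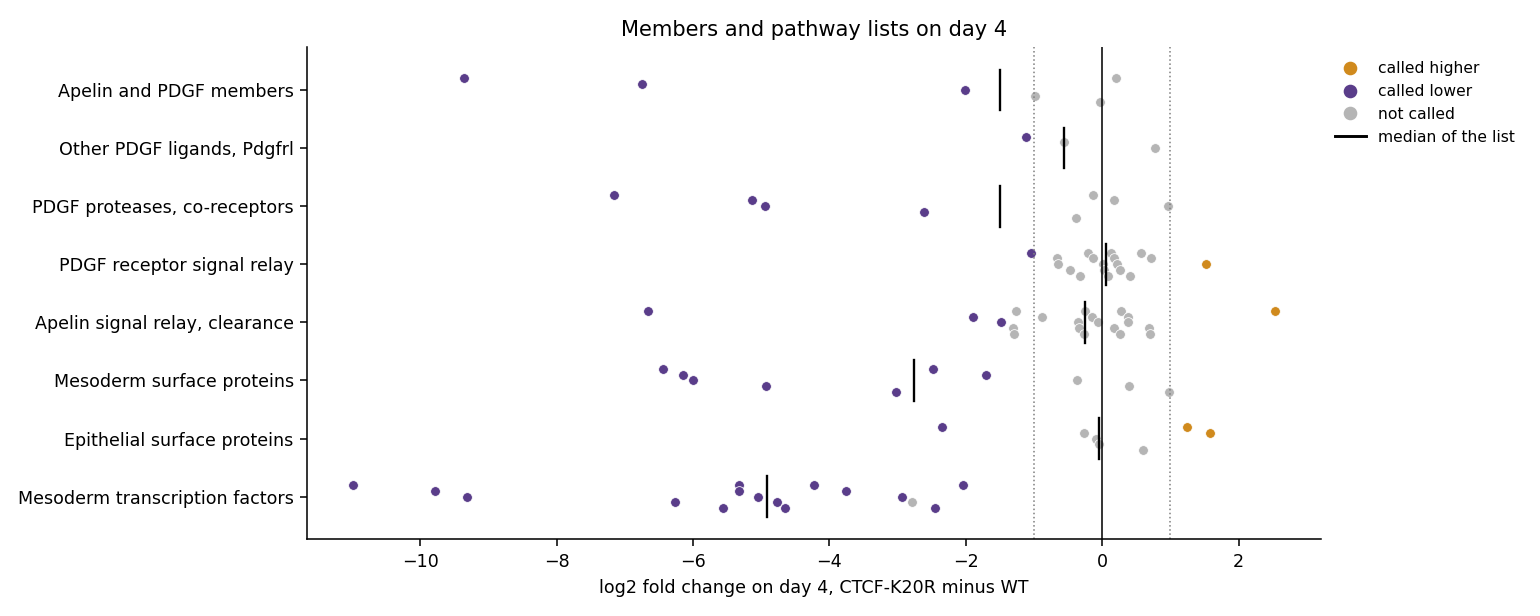
Log2 fold change of CTCF-K20R against WT on day 4 (horizontal axis) for each tested gene of the members and of 7 pathway lists, with purple for genes called lower, orange for genes called higher, grey for genes not called, a black bar at the median of a list and dotted lines at -1 and 1. The relay lists centre near 0 (medians 0.06 and -0.25), and the mesoderm lists lie to the left (medians -2.76 and -4.91).

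Other cell types of the cultures were read from marker lists. The summed level of 9 nascent mesoderm markers was 33507 and 33659 normalized counts in the EBs of WT and 1695 and 1692 in CTCF-K20R EBs, where Mesp1 and Msgn1 were at or under the limit of detection, so these markers moved together with Aplnr, Pdgfra and Apln. The sum of 13 extraembryonic endoderm markers moved the same way, at 18597 and 18475 against 6314 and 6282. Apoa1 was at or under the limit in CTCF-K20R EBs only, and Afp and Ttr in WT EBs only. The single markers went both ways, with log2 fold changes from -7.30 to 0.87 among the 9 tested. Of these 9, 6 were called lower and none higher, beside 8.65% and 6.89% of all genes. The largest falls were those of Sox17 (log2 fold change -7.30) and Gata6 (log2 fold change -7.21). Gata6 is also a factor of mesendoderm, so the sum does not stand for extraembryonic endoderm alone. The sum of 10 mESC markers was 155490.0 and 155870.0 in WT mESCs, 157000.0 and 160010.0 in CTCF-K20R mESCs, 40091 and 40194 in WT EBs and 48515 and 47349 in CTCF-K20R EBs. All 10 were above the limit in every group, so the markers of the labelled mESCs were present. The EB sums are carried by few genes. Gene by gene, 6 of the 10 mESC markers were called higher in CTCF-K20R EBs and 2 lower, with a median log2 fold change of 1.41, and without Tdgf1, one of those lower, the sum was 16385 and 16525 in WT EBs against 36659 and 35854 in CTCF-K20R EBs. Most mESC markers were thus higher in the EBs in which Aplnr and Pdgfra were low. Nanog, a pluripotency factor, was at 1702 and 1698 against 5510.4 and 5208 (log2 fold change 1.66, adjusted p = 2.82e-05). The 5 neural ectoderm markers in the table summed to 2218 and 2181 in WT EBs and to 3527 and 3579 in CTCF-K20R EBs, and 3 of them were called higher. The part of these cell types in the differences of the members was not tested.

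Fibroblasts and pericytes express PDGF receptors, so their markers are set beside the day 0 difference of Pdgfrb. The 13 fibroblast markers in the table summed to 1057 and 1028 in WT mESCs and to 679 and 672 in CTCF-K20R mESCs, where Col6a1, Dcn, Col3a1, Postn and Lum were at or under the limit. This fall rests on Thy1, without which the sums were 592 and 569.7 against 575 and 568. The single markers went both ways, with log2 fold changes from -2.14 to 0.95 among the 11 tested. Of 11 tested by limma, none was called higher on day 0 and 1 lower, beside 1.19% and 2.60% of all genes. The gene called was Thy1 (log2 fold change -2.14, adjusted p = 0.00155). Col1a1, a collagen of fibroblasts, was at 17.4 and 16.0 in WT mESCs and at 34.3 and 32.2 in CTCF-K20R mESCs. It was not called (log2 fold change 0.95, adjusted p = 0.179). The 6 pericyte and smooth muscle markers summed to 2414 and 2429 in WT mESCs and to 1993 and 2002 in CTCF-K20R mESCs, with Rgs5 at or under the limit in both. Without Notch3, which makes up most of that sum, they came to 106 and 120.4 against 102 and 88.1. Of 4 tested, none was called higher or lower on day 0, beside 1.19% and 2.60% of all genes. The part of such cells in the Pdgfrb difference was not tested.

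In EBs the fibroblast sum was 2966 and 2932 in WT against 2147 and 2064 in CTCF-K20R, and 1801 and 1777 against 1858 and 1755 without Col5a1, with 2 markers called higher and 3 lower of 11 tested. The pericyte sum was 2474 and 2494 against 3627 and 3873, but 604 and 623 against 294 and 314 without Notch3, and 1 of 4 tested markers, Rgs5, was called lower. The 10 endothelial markers summed to 745 and 753 in WT EBs and to 509 and 475 in CTCF-K20R EBs, with Emcn at or under the limit in both. Without Etv2 this order turned, to 245 and 247 against 369.9 and 371. Of 7 endothelial markers tested, Pecam1 and Tek were called higher and Etv2 lower, with a median log2 fold change of 0.36. For these 3 lists the shares of all genes called on day 4 were 6.89% higher and 8.65% lower.

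The genes whose pattern was most like that of each member were found by the distance between log2 profiles, centred on their own means, over the 6 samples. For Aplnr these were Pcdh7 (distance 1.24), Cer1 (1.76) and Lhx1 (1.93). For Pdgfra they were Cxcr4 (0.872), Fgf10 (0.933) and Gata6 (0.963). Apln was closest to Pth1r (0.335), Capn2 (0.442) and Cobll1 (0.517), which like it were present in CTCF-K20R EBs at a lower level. Cer1 codes for a secreted inhibitor of Nodal and BMP, Lhx1 and Gata6 for transcription factors of mesendoderm, and Fgf10 for a growth factor. Pdgfrb was closest to Srgn (0.376), Pdgfa to Egr1 (0.334) and Pdgfc to 1700061G19Rik (0.392), and the row ENSMUSG00000079042 to Gm28893 (0.212). Among the members themselves Pdgfa and Pdgfc were the nearest pair (1.17), while Apln and Pdgfra (5.22), Apln and Aplnr (6.77) and Aplnr and Pdgfra (6.87) lay further apart. Such distances describe 4 group patterns and do not speak of shared control.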

How the data were processed

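RNA-seq was done on WT and CTCF-K20R mESCs (day 0) and EBs (day 4), 2 libraries each. Per the labels and the study's methods, the authors trimmed the reads with Trim Galore, estimated transcript levels with Salmon on mm10, summed them to genes and scaled them with DESeq2. The deposited values are thus a signal per gene, called normalized counts here. Between 28.9% and 42.8% of the values under 20 reads fell within 0.05 of a whole read, so reads were not recovered and no count model was used. Each of the 8 value columns carries the name of its sample. The annotation release and the use of strand are not given in the sources used here.

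The log2 of each value, plus a pseudocount of 1, was fitted in R 4.3.3 by limma 3.58.1, whose eBayes step used a trend of variance on mean. The 15767 genes whose mean reached 10 were tested, and p-values were adjusted by Benjamini-Hochberg over all of them. All tests were two-sided. WT pairs, which differed by less than the sampling noise, entered as their mean, so that 6 samples were fitted with 2 residual and 3.51 prior degrees of freedom, and the error rests on the CTCF-K20R pairs alone. WT against WT has no test. The scripts were tested on simulated data. Confidence intervals are those of limma.

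Positions and exon lengths came from GENCODE vM21 (GRCm38), upstream sequences from RefSeq GRCm38.p6. The members and the lists were chosen with earlier results of these data known. Named are all members, Ctcf, and from each list the 2 largest rises and 2 largest falls among genes called on day 4, with the 3 genes nearest to each member in profile (the nearest only, for some). 6330403L08Rik, Cdx1, Fam20c, Flt1, the markers left out of a sum, Nanog, Col1a1, Pecam1, Tek and the day 0 value of Nrp2 were named after their values were seen. Gm45886, which has no row, was named for its overlap. Alternatives were other pseudocounts, no filter, all 8 libraries apart with and without the replicate number as a block, quantile normalization, no trend, only the libraries compared, a limit of 0.01 on the adjusted p, and each library left out in turn. Replicate numbers did not pair the samples. Python 3.11.15 with numpy 2.4.6, pandas 2.3.3 and matplotlib 3.10.9 made the tables and plots.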

Additional observations from a re-analysis of the deposited data

Results flagged for a closer look

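The difference between genotypes was not the same on the 2 days for 5 of the 6 members and for the row of uncertain name, by the interaction term of limma. On day 4 minus day 0, the log2 fold change was -9.36 for Aplnr and -6.95 for Pdgfra, both far below WT in CTCF-K20R EBs. It was -2.39 for Apln, which was higher on day 4 in both genotypes, and -1.35 for Pdgfa, which was lower on day 4 in both. It was -1.21 for Pdgfrb, whose difference lay on day 0. It was 1.34 for the row ENSMUSG00000079042, which ran opposite to the others. The values of Apln and Pdgfrb passed the threshold with all libraries and missed it without either CTCF-K20R library of day 4. Pdgfrb missed it as well without either CTCF-K20R library of day 0 (adjusted p = 0.0692 and 0.0773) and with quantile normalization (-0.96).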

How the results depend on the processing

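The day 4 differences of Aplnr and Pdgfra and of the row ENSMUSG00000079042 were called under all 17 alternatives, with log2 fold changes from -9.62 to -8.91, from -7.15 to -6.34 and from 1.55 to 1.77, and adjusted p up to 0.0146, 0.0189 and 0.0153. Apln ranged from -2.04 to -1.99, with adjusted p up to 0.0604. The count of members called on day 4 was 3, but 4 without WT library 2 of day 4 (Pdgfa gained) and 2 without CTCF-K20R library 1 of day 4 (Apln lost), while without CTCF-K20R library 2 of day 4 Pdgfa took the place of Apln among the 3, and the count over time in CTCF-K20R ranged from 5 to 6. The 1 call on day 0, Pdgfrb, became 0 without a trend in eBayes (adjusted p = 0.0531) and with only the libraries compared (adjusted p = 0.0560), and it ranged from 0 to 1 when a library was left out. The interaction count ranged from 3 to 5 in the same way. Leaving out a CTCF-K20R library leaves 1 sample in that group, which is then assumed to vary like the others. The sign turned in a pair of results, both of differences that were not called. Pdgfra on day 0 ranged from -0.034 to 0.45 when a library was left out, below 0 without CTCF-K20R library 1, and Pdgfc on day 4 from -0.24 to 0.18, above 0 without WT library 1 or CTCF-K20R library 1, and it was 0.19 with quantile normalization. For single members and the row ENSMUSG00000079042 together, 195 of 216 values with a library left out kept their direction and their side of the threshold. Under another setting 225 of 236 did. All values of the row are among those kept. With the replicate block and 8 separate libraries the counts of members called were 3, 1, 5 and 6, as without it. Samples that share a replicate number did not deviate together (correlations from -0.031 to 0.03). Over all genes, the day 0 calls moved most, from 188 higher and 410 lower to 445 and 903 with 8 separate libraries, 235 and 326 with quantile normalization, 23 and 33 without a trend, 54 and 92 with only the libraries compared, and 0 and 0 without either CTCF-K20R library of day 4. The day 4 calls went from 1087 higher and 1364 lower to 721 and 869 without CTCF-K20R library 1 of day 4, 1376 and 1778 with 8 separate libraries, and 1448 and 1249 with quantile normalization, where more genes were higher than lower, and the interaction calls from 1079 and 952 to between 471 and 1709 higher and 410 and 1631 lower. The causes were not tested. Depth limits values at or under 3 reads, such as Aplnr in mESCs.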

Other observations

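PDGFRA and PDGFRB belong to a family of receptor tyrosine kinases with KIT, CSF1R and FLT3, to which the VEGF receptors are related. Of the 8 genes of both families, 4 were called lower on day 4 by limma and none higher (0 of 8 also at an unadjusted p under 0.05). The shares of all genes were 8.65% and 6.89%, and the median log2 fold change of the 8 was -1.25. Beside Pdgfra and Kit, the genes called lower were the VEGF receptor genes Kdr and Flt1. Kdr was at 2312 and 2293 normalized counts in the EBs of WT and at 46.5 and 26.1 in CTCF-K20R EBs (log2 fold change -6.01, adjusted p = 0.000650). Flt1 was at 2790 and 2809 against 336 and 348 (log2 fold change -3.03, adjusted p = 0.000152). On day 0 the sole call of the 8 was that of Pdgfrb.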
